A study of Mus musculus with 11 samples.

Results

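The hearts compared here came from 3 CD mice and 3 WT mice that had all received JZL184, 6 of the 11 mice of the series. CD mice (strain WBS-CD) carry a complete deletion on 1 copy of chromosome 5 from Gtf2i to Fkbp6, which corresponds to the region lost in most people with Williams-Beuren syndrome (WBS). WT mice were littermates without the deletion (C57BL/6), and the line had been backcrossed to C57BL/6J for 9 generations. All were males, the study used mice of 8 to 16 weeks, and JZL184 was injected intraperitoneally at 8 mg/kg once a day for 10 days. Since both groups of this comparison received JZL184, the comparison gives the difference between genotypes during treatment and not the effect of the compound. The other 5 mice, 3 CD and 2 WT, received the vehicle (VEH). They give the same genotype contrast with no mouse in common, and they also enter the gene filter and the estimate of the spread in the model over all 11 mice. Every gene with a mean of at least 1 CPM (counts per 1000000 counts of a library) over the 11 mice was tested, 12240 of 22608 genes, and the 15 of them that lie in the deleted interval are described apart from the other 12225.

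WBS is a developmental disorder in which the loss of 1 copy of elastin (Eln) narrows large arteries, and vascular disease is one of its leading medical concerns. The deleted interval also holds genes of transcription factors and chromatin proteins, among them Gtf2i, Gtf2ird1, Mlxipl and Baz1b, whose products act on genes elsewhere. JZL184 inhibits monoacylglycerol lipase, the product of Mgll, which degrades the endocannabinoid 2-arachidonoylglycerol. That lipid acts on the cannabinoid receptors encoded by Cnr1 and Cnr2, and its breakdown releases arachidonic acid, which other enzymes turn into prostaglandins and leukotrienes. A ventricle holds cardiomyocytes, endothelial cells, pericytes and smooth muscle cells of its vessels, fibroblasts and macrophages, and all of them contribute to RNA taken from the whole tissue.

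Between 73026904 and 92251443 reads were assigned to genes in each of the 6 mice, and a floor of 3 counts corresponded to 0.0306 to 0.0419 CPM. Cardiomyocyte contractile genes summed to between 45817 and 62050 CPM per mouse, and atrial markers to between 168 and 300 CPM. Genes of the mitochondrial genome took between 36.4% and 40.2% of the counts of CD mice and between 44.96% and 46.6% of those of WT mice. The first principal component of the 500 most variable genes held 57.6% of their variance and separated the genotypes, with CD mice between 7.79 and 11.2 and WT mice at -5.28, -17.5 and -7.43. In bulk tissue, fewer cells of a type and less RNA per cell cannot be told apart.

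The deleted interval (chr5:134237834-135350044, GRCm38) held 25 genes of the table, and all 15 that were tested were lower in CD hearts, with no overlap between the groups. Outside the interval, 36.6% of the tested genes passed the same threshold, an adjusted p under 0.05 in edgeR's quasi-likelihood test. Of the 15 genes, Stx1a passed the filter on low values only through the WT mice, so its call is a description. Differences on the log2 scale are CD minus WT. The value after ± is an approximate standard error, the absolute log2 fold-change divided by the square root of the F statistic of the test. The median log2 fold-change of the 15 genes was -0.91, and 1 lost copy of 2 corresponds to a value of -1. Eif4h, a translation initiation factor, was at 52.4, 55.2 and 54.5 CPM in CD mice and at 97.7, 104 and 105 CPM in WT mice, a difference of -0.92 ± 0.06 on the log2 scale (edgeR adjusted p = 5.19e-06). Bcl7b, a subunit of BAF chromatin remodelling complexes, was at 10.8, 11 and 10.7 CPM against 20.8, 22.2 and 21.1 CPM, a difference of -0.97 ± 0.06 on the log2 scale (edgeR adjusted p = 3.88e-06). Both genes lay close to the level of 1 copy and varied little between mice.

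Eln and Clip2 had the largest reductions among the 15 tested genes. Eln was at 12, 17.9 and 16.9 CPM in CD mice and at 37.7, 52.2 and 42.4 CPM in WT mice, a difference of -1.50 ± 0.19 on the log2 scale (edgeR adjusted p = 0.000511). Clip2, which encodes a microtubule-binding linker protein, was at 4.35, 4.99 and 4.87 CPM against 11.3, 13.6 and 14 CPM, a difference of -1.45 ± 0.09 on the log2 scale (edgeR adjusted p = 8.52e-06). In both cases the highest CD mouse was below the lowest WT mouse by a wide margin. Stx1a, a syntaxin of vesicle fusion, had a log2 fold-change of -1.28 and Limk1, a kinase that acts on actin filaments, one of -1.04. Stx1a was at 0.602 to 0.774 CPM in CD mice and at 1.56 to 1.84 CPM in WT mice. It passed the filter only through the WT mice, in which it is higher.

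Gtf2ird1, Gtf2i, Mlxipl and Baz1b had the smallest reductions of the 15 tested genes. Gtf2i was at 66.5, 65.9 and 68.3 CPM in CD mice and at 99.4, 94.5 and 104 CPM in WT mice, so that CD hearts held 67.3% of the WT mean (-0.57 ± 0.06 on the log2 scale, edgeR adjusted p = 0.00021). Mlxipl, a glucose-responsive transcription factor also named ChREBP, had a log2 fold-change of -0.61, and Baz1b, a chromatin remodelling protein, one of -0.75. Gtf2ird1 was at 6.45, 7.27 and 7.13 CPM against 8.16, 7.46 and 9.37 CPM, the smallest reduction of the 15 genes (-0.26 on the log2 scale, edgeR adjusted p = 0.0413), and this call was lost under 7 of 16 alternatives. Gtf2i, Gtf2ird1 and their neighbour Gtf2ird2 share repeated sequence, so the split of reads among them is uncertain. The remaining tested genes, Tbl2, Dnajc30, Abhd11, Bud23 and Rfc2, had log2 fold-changes between -0.97 and -0.79. Bud23 and Dnajc30 overlap on opposite strands, as do Rfc2 and Lat2, and whether strand was used in counting is not given in the sources used here.

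**Figure D1:**
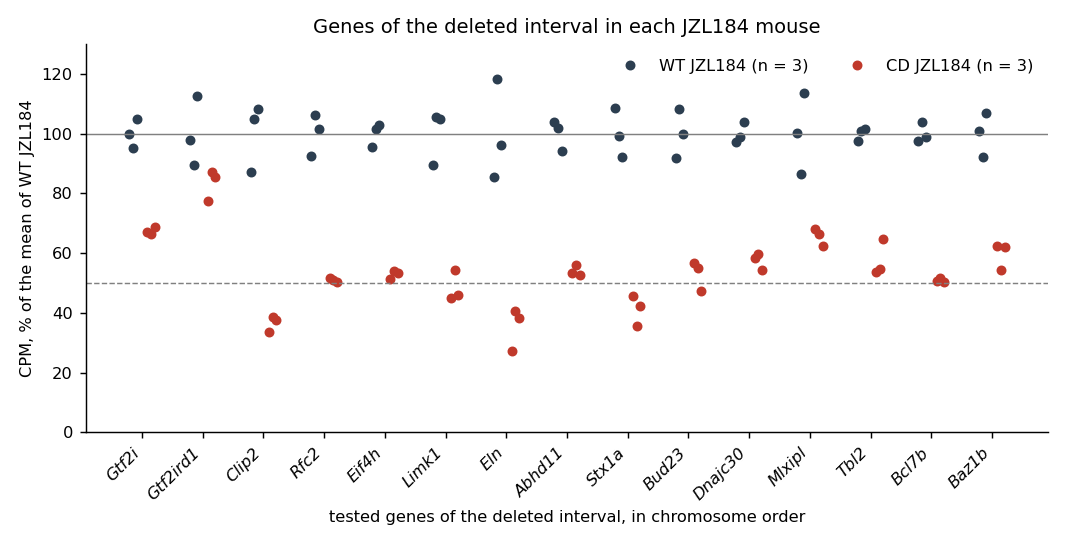
Levels of the 15 tested genes of the deleted interval in each JZL184 mouse, in chromosome order, as a percentage of the mean CPM of the 3 WT mice. Each point is 1 mouse, the solid line is the WT mean and the dashed line is the level of 1 copy in place of 2. CD mice lie below WT mice for every gene, farthest for Eln and Clip2 and nearest for Gtf2ird1.

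Of the 10 interval genes below the filter, Syna, Lat2, Vps37d, Fzd9 and Mettl27 were lower in every CD mouse than in any WT mouse, as were 23.6% of the tested genes outside the interval, and Tmem270 and Cldn13 had no counts in the 6 mice. Fkbp6, the last gene of the interval, went the other way. It was at 1.10, 0.745 and 0.955 CPM in CD mice and at 0.0130, 0.0699 and 0.0230 CPM in WT mice. The summed counts were 250 in CD and 8 in WT mice, a ratio of 27.2 with a 95% interval for counting error of 13.6 to 63.7. Fkbp6, whose product is needed in male germ cells, was therefore near the floor in WT hearts and above it in CD hearts. It was named after its values were seen, as were the other genes below the filter.

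The gene next to Fkbp6 outside the deletion behaved in the same way. Trim50, an E3 ubiquitin ligase gene at chr5:135353295-135368005 on the opposite strand, starts 3251 bases from the start of Fkbp6. Its level was 5.66, 5.77 and 6.12 CPM in CD mice and 0.0130, 0 and 0.0574 CPM in WT mice. The summed counts were 1581 against 6, a ratio of 229.5 (95% counting interval 105.2 to 626.3). Trim50 passed the filter on low values only through the CD mice, in which it is high. These counts are therefore a description, and the test of Trim50 is not used as support. Trim50 is still included in the counts of called genes given below. The fitted log2 fold-change of 7.76 depends on the prior count of the model. The 250 bases in front of Fkbp6 are shown because they lie between these genes, at the edge of the deleted interval (chr5:135350045-135350294, minus strand, GRCm38.p6, RefSeq), with the motif CACGTG in capitals.
Fkbp6: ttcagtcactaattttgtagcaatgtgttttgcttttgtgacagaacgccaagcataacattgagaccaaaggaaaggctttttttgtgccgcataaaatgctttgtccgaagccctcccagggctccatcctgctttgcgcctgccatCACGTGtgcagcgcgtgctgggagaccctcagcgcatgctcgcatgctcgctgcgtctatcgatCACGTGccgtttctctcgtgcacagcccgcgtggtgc
CACGTG, an E-box that reads the same on both strands, begins 101 and 37 bases before the start. Among 32851 windows of this length 6.02% held the motif and 0.429% held it at least 2 times. The match is a description of the sequence and was not linked to any measurement here.

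Of 31 genes within 1000000 bases of the interval on either side, 23 were tested and 9 were called, which is 39.13% and close to the 36.6% of all genes. Castor2, Rcc1l, Rhbdd2, Ywhag and Cux1 were higher and Ncf1, Ccl24 and Polr2j were lower in CD hearts. The 9 also include Trim50, whose call is no support because it passed the filter only through the CD mice. Castor2, a regulator upstream of mTORC1, was at 25.0, 26.7 and 26.4 CPM in CD mice and at 17.3, 18.3 and 21.8 CPM in WT mice (0.45 on the log2 scale, edgeR adjusted p = 0.00237). Ncf1, a subunit of the phagocyte NADPH oxidase, was at 2.67, 3.50 and 2.76 CPM against 4.18, 7.89 and 4.93 CPM (-0.92 on the log2 scale, edgeR adjusted p = 0.00618). These flanking genes other than Trim50 were named after their values were seen.

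Outside the interval 4470 genes were differentially expressed (DEGs), 36.6% of those tested, with 2164 higher (17.7%) and 2306 lower (18.9%) in CD hearts. The changes were mostly small. The median log2 fold-change was 0.32 among the higher and -0.44 among the lower DEGs, and 78 genes, 19 higher and 59 lower, passed 1 on the log2 scale. In 4267 of the 4470 DEGs the 3 CD and 3 WT mice did not overlap, and over all tested genes the groups did not overlap in 46.9%. With only the 6 compared mice in the model 3535 genes were called, 1612 higher and 1923 lower. DESeq2 called 39.7% of the genes, and 47.6% had an unadjusted edgeR p under 0.05. Apart from Trim50, the lowest adjusted p belonged to genes that were lower in CD hearts. Adgrl4, an adhesion receptor of endothelial cells also named Eltd1, was at 59, 55.9 and 51.9 CPM against 96, 92.3 and 94.9 CPM (-0.76 ± 0.06 on the log2 scale, edgeR adjusted p = 2.88e-05). Lpar6, a receptor for lysophosphatidic acid, had a log2 fold-change of -0.88, Gsta3, a glutathione transferase, one of -1.06, Cav2, a caveolin, one of -0.73, and Cd200, a membrane ligand that restrains myeloid cells, one of -0.73.

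**Figure D2:**
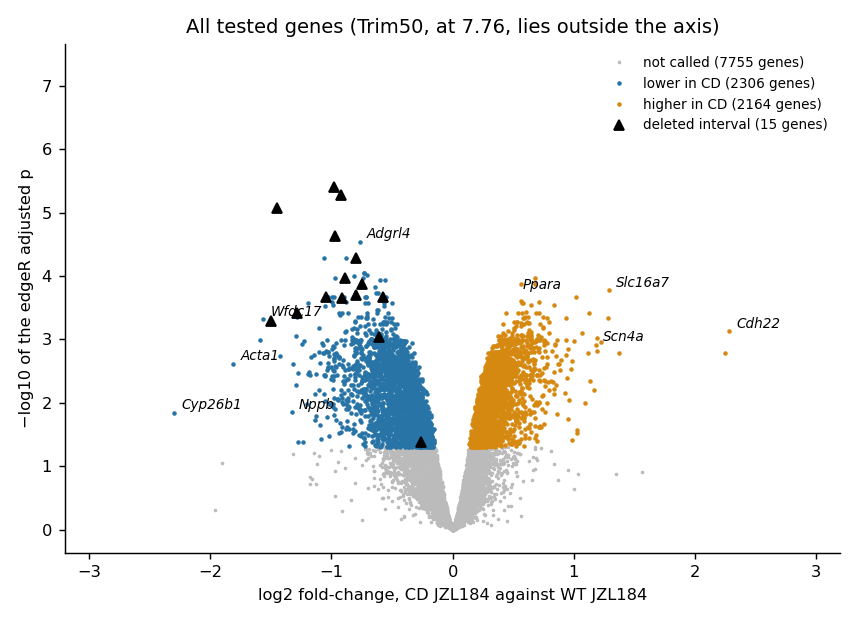
Log2 fold-change of CD JZL184 against WT JZL184 (horizontal axis) and −log10 of the edgeR adjusted p (vertical axis), 1 point per tested gene. Blue points are the 2306 genes lower and orange points the 2164 genes higher in CD hearts, triangles are the 15 genes of the deleted interval, and Trim50 lies outside the axis. Most called genes lie within 1 of zero on the log2 scale, and the interval genes are on the left.

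Part of the contractile genes of the cardiomyocyte rose in CD hearts. Of 26 contractile genes 11 rose, beside 17.7% of all genes, and none fell, with a median log2 fold-change of 0.25, where all tested genes had a median of -0.002. Cmya5, a sarcomere-associated scaffold protein also named myospryn, was at 830, 790 and 836 CPM in CD mice and at 523, 412 and 513 CPM in WT mice (0.76 ± 0.11 on the log2 scale, edgeR adjusted p = 0.00104). Actn2, the alpha-actinin of the Z disc, and Ldb3, a Z-disc protein, rose by 0.43 and 0.40 on the log2 scale. The groups did not overlap for any of these genes, which were named for their low p. Of all tested genes outside the interval 46.9% did not overlap. The adult heavy chain Myh6 was at 14948, 14777 and 16048 CPM against 12363, 8221 and 11647 CPM (0.51 on the log2 scale, edgeR adjusted p = 0.0168), and this call was lost without 1 CD mouse (adjusted p = 0.0581 without mouse E). Myh7, the slow heavy chain, was at 175, 153 and 166 CPM against 94.6, 108 and 115 CPM (0.64 on the log2 scale, edgeR adjusted p = 0.015). Myh6 and Myh7 are close in sequence, so that reads could be divided between them with error. Without CD mouse E, 7 contractile genes were called higher. The summed level of the list overlapped between the groups, at 59022 to 62050 CPM in CD and 45817 to 59569 CPM in WT mice.

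Calcium handling and ion channel genes held members of both directions. Among 24 calcium handling genes 9 rose and 4 fell, beside 17.7% and 18.9% of all genes, so that the 4 are about the share of all genes. Ryr2, the calcium release channel of the sarcoplasmic reticulum, was at 1652, 1322 and 1563 CPM in CD mice and at 854, 592 and 920 CPM in WT mice (0.94 ± 0.16 on the log2 scale, edgeR adjusted p = 0.00176). Atp2a2, the pump that returns calcium to that store, was at 10657, 11157 and 11383 CPM against 7966, 6167 and 7443 CPM (0.62 ± 0.10 on the log2 scale, edgeR adjusted p = 0.00161). The store's release channel and its pump were thus both higher in every CD mouse than in any WT mouse. The 4 genes that fell included Itpr2 (log2 fold-change -0.40), an inositol trisphosphate receptor, Sri and Atp2b4. Among 24 ion channel genes 11 rose, beside 17.7% of all genes, with potassium channels Kcnd3 at 0.58, Kcnd2 at 0.73, Kcnj3 at 0.71 and Kcnj11 at 0.47 on the log2 scale, and the 4 that fell, near the 18.9% of all genes, included Gja5, Hcn2 and Kcna5. Scn4a, the sodium channel of skeletal muscle, was at 23.6, 25.7 and 25.4 CPM against 9.04, 11.1 and 12.7 CPM, among the largest increases (1.18 ± 0.18 on the log2 scale, edgeR adjusted p = 0.00121).

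Cardiac transcription factors rose more often than not, with 13 of 16 called higher, beside 17.7% of all genes, none lower and a median log2 fold-change of 0.38. Tead1, which acts with the Hippo pathway, was at 175, 178 and 171 CPM in CD mice and at 117, 101 and 121 CPM in WT mice (0.63 ± 0.08 on the log2 scale, edgeR adjusted p = 0.000718). Nkx2-5 and Mef2a, regulators of the cardiac gene programme, rose by 0.37 and 0.40 on the log2 scale. The summed level of the list lay between 846 and 872 CPM in CD mice and between 609 and 683 CPM in WT mice. Of 12 muscle splicing regulators 7 rose, with Rbm24 at 0.61 and Rbfox2 at 0.42, and Ptbp1, which represses muscle exons, was the 1 that fell.

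The genes of the hypertrophic and fetal programme did not move one way. Of 18 tested, Fhl1, Uchl1, Gata4, Myh7 and Mef2c rose, Acta1, Nppb and Ccn2 fell, and the median log2 fold-change was -0.08, where 17.7% of all genes were called higher and 18.9% lower. Acta1, the skeletal alpha-actin that the fetal and the stressed heart express, was at 31.3, 74.3 and 45.6 CPM in CD mice and at 178, 194 and 160 CPM in WT mice (-1.81 ± 0.34 on the log2 scale, edgeR adjusted p = 0.00244). Nppb, the B-type natriuretic peptide gene, was at 109, 101 and 162 CPM against 486, 248 and 200 CPM (-1.33 ± 0.36 on the log2 scale, edgeR adjusted p = 0.0142). WT mouse A was far above the other WT mice for Nppb, and without it the log2 fold-change was -0.85 (adjusted p = 0.0524), while without CD mouse A the adjusted p was 0.0527. Nppa, the atrial natriuretic peptide gene, was at 125, 106 and 72.8 CPM against 148, 219 and 109 CPM, the groups overlapped and the test was not passed (-0.64 on the log2 scale, edgeR adjusted p = 0.153).

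Acta1 fell beside several smooth muscle genes, and the windows in front of Acta1 and of Myl9, a myosin light chain of smooth muscle, are shown because each holds a CArG box, the sequence bound by serum response factor (in capitals; 250 bases before the start, GRCm38.p6, RefSeq; chr8:123894776-123895025, minus strand, and chr2:156775214-156775463, plus strand).
Acta1: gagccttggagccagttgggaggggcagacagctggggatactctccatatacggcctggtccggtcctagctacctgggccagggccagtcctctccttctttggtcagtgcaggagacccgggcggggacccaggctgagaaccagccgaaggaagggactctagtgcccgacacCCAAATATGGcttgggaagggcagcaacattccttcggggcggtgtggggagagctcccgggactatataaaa
Myl9: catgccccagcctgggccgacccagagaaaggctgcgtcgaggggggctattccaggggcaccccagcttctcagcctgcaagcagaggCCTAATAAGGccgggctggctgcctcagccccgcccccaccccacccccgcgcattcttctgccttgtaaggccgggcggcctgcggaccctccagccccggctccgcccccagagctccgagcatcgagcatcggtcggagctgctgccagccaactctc
The first base of the box lies 73 bases before the start of Acta1 and 161 bases before that of Myl9, and 1.47% of the 32851 windows held one on either strand. Of 20 smooth muscle genes 16 had a window, and Myl6 and Myl9 were the 2 with a CArG box in it. A missing match says only that these letters are not in that window. The matches describe the sequences and were not linked to any measurement here. In VEH mice the log2 fold-change was -2.24 for Acta1 and 0.83 for Myl9.

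Smooth muscle genes mostly fell. Of 19 tested, 12 fell, beside 18.9% of all genes, 3 rose, which is near the 17.7% of all genes, and the median log2 fold-change was -0.57. Myl9 was at 10.1, 10.3 and 9.01 CPM in CD mice and at 26.4, 22.9 and 18.1 CPM in WT mice (-1.19 ± 0.13 on the log2 scale, edgeR adjusted p = 0.000265). Tagln, an actin-binding protein of contractile smooth muscle, was at 9.92, 11 and 8.42 CPM against 29.5, 25.4 and 17.2 CPM (-1.29 ± 0.18 on the log2 scale, edgeR adjusted p = 0.000875). Myh11, the smooth muscle heavy chain, was at 15.4, 14.1 and 12.7 CPM against 41.7, 32.7 and 24.5 CPM (-1.23 ± 0.18 on the log2 scale, edgeR adjusted p = 0.00107). In WT mice all 3 genes were highest in mouse A and lowest in mouse D, and every CD mouse was below them. Myocd, the coactivator of serum response factor that cardiomyocytes also express, was at 39.4, 38.4 and 43.6 CPM against 26.3, 19.8 and 26.1 CPM (0.75 ± 0.10 on the log2 scale, edgeR adjusted p = 0.000635), and Smtn and Synpo2 were the others that rose. The summed level of the whole list overlapped between the groups (6663 to 7069 CPM in CD, 6174 to 7436 CPM in WT mice), and the list includes Pln and Des, which cardiomyocytes express too.

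Markers of the other vascular cells fell together. Of 10 pericyte markers 8 fell and none rose, where 18.9% of all genes fell, and Vtn, the gene of vitronectin, was at 14.3, 17.6 and 16.8 CPM in CD mice and at 28.7, 28.9 and 28.1 CPM in WT mice (-0.82 ± 0.07 on the log2 scale, edgeR adjusted p = 0.0001). Rgs5, a regulator of G protein signalling in pericytes, fell by 0.55 on the log2 scale. Of 26 endothelial markers 23 fell, and the remaining 3, Vwf, Cd36 and Plvap, were not called. Ly6c1 was at 84.7, 79.5 and 83.7 CPM against 142, 149 and 126 CPM (-0.75 ± 0.07 on the log2 scale, edgeR adjusted p = 0.000136), and Robo4, a guidance receptor of endothelium, fell by 0.56. The fatty acid carrier Fabp4, which endothelial cells and adipocytes express, was at 282, 305 and 263 CPM against 432, 614 and 458 CPM (-0.82 on the log2 scale, edgeR adjusted p = 0.00104). The summed endothelial level was 3304, 3329 and 3139 CPM in CD mice and 4454, 4851 and 4382 CPM in WT mice, a ratio of 0.714 with no overlap.

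Of 28 genes of vascular signalling 19 were called lower and Angpt1 alone higher, against 18.9% and 17.7% of all genes. The call of Angpt1 (edgeR adjusted p = 0.022) was lost when the model held only the 6 mice (0.0528), without CD mouse C (0.0511) and without CD mouse E (0.0629). Among receptors, Flt1, which binds VEGF, was at 103, 97.3 and 94.6 CPM in CD mice and at 143, 146 and 144 CPM in WT mice (-0.55 ± 0.06 on the log2 scale, edgeR adjusted p = 0.00021), and Tek, the receptor of the angiopoietins, had a log2 fold-change of -0.55. Among ligands, Angpt2, which endothelial cells release, was at 1.97, 2.32 and 2.09 CPM against 5.17, 3.69 and 4.85 CPM (-1.10 ± 0.15 on the log2 scale, edgeR adjusted p = 0.000653). Bmp6, a ligand of the BMP family made by endothelium, was at 11.9, 12.8 and 13.7 CPM against 20.6, 24.9 and 25.2 CPM (-0.88 on the log2 scale, edgeR adjusted p = 0.000739). The groups did not overlap for any of the 4 genes, which were named for their low p. Over all tested genes outside the interval 46.9% did not overlap. Of the 18 TGF-beta genes that hold Bmp6, 6 fell and 2, Tgfbr3 and Smad4, rose. Of all genes 18.9% fell and 17.7% rose, and 3 genes of the list fell without CD mouse A, WT mouse B or WT mouse D.

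Part of the elastic fibre and matrix genes fell in addition to Eln. Of 18 elastic fibre genes, Eln included, 9 fell, none rose and the median log2 fold-change was -0.46, and the summed levels overlapped (455 to 569 CPM in CD, 565 to 725 CPM in WT mice). Of all genes 18.9% fell. Fbln5, which anchors elastin to cells, was at 12.6, 16.2 and 14.2 CPM in CD mice and at 19.1, 27.4 and 20.3 CPM in WT mice (-0.63 ± 0.13 on the log2 scale, edgeR adjusted p = 0.00331). Fbln2, another fibulin, had a log2 fold-change of -0.58. Mfap4, a microfibril-associated protein, was at 3.72, 5.52 and 4.30 CPM against 7.14, 16.2 and 7.93 CPM (-1.20 ± 0.30 on the log2 scale, edgeR adjusted p = 0.0103), with WT mouse B highest. Of 26 fibroblast and collagen genes 13 fell and none rose. Dcn, a small proteoglycan of collagen fibrils, was at 353, 371 and 372 CPM against 525, 633 and 563 CPM (-0.65 ± 0.08 on the log2 scale, edgeR adjusted p = 0.000571), Lum, of the same family, fell by 0.79 and Tcf21, a transcription factor of cardiac fibroblasts, by 0.53 on the log2 scale. The summed level of the fibroblast list was 0.797 of the WT level, again without overlap.

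Macrophage markers had the lowest median of the cell type lists with more than 10 tested members, at -0.80, and 17 of 20 fell, where 18.9% of all genes did. Lyz2, a lysozyme, was at 112, 131 and 115 CPM in CD mice and at 178, 310 and 251 CPM in WT mice (-1.05 ± 0.17 on the log2 scale, edgeR adjusted p = 0.00152). Adgre1, which encodes the F4/80 antigen, fell by 0.75 and Mertk, a receptor for the uptake of dying cells, by 0.53. Wfdc17, a gene of activated macrophages, was at 2.24, 2.68 and 2.94 CPM against 5.54, 9.52 and 8.24 CPM (-1.56 ± 0.19 on the log2 scale, edgeR adjusted p = 0.000481). The chemokine genes Ccl6 and Ccl9 had log2 fold-changes of -1.43 and -1.28. The summed marker level was 404, 473 and 429 CPM in CD and 566, 969 and 808 CPM in WT mice, a ratio of 0.558, and WT mouse A was the nearest to the CD mice. Of 24 interferon and MHC genes 16 fell, among them B2m, the light chain of MHC class I (120, 165 and 147 CPM against 205, 281 and 217 CPM; log2 fold-change -0.70, edgeR adjusted p = 0.00255), and H2-D1, a class I heavy chain of a family with near-identical members (log2 fold-change -0.67). Without CD mouse A 9 genes of this list were called, and without CD mouse E or WT mouse D 10 were. For haemoglobin, a sign of retained blood, none of the 6 erythroid genes was called, although Hba-a1 was at 211, 331 and 266 CPM against 594, 821 and 411 CPM (-1.18 on the log2 scale, edgeR adjusted p = 0.148) and shares sequence with Hba-a2. Hba-a1 passed when the model held only the compared groups (edgeR adjusted p = 0.0108). Of the 6 genes 5 were lower in every CD mouse than in any WT mouse, beside 23.6% of all genes.

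**Figure D3:**
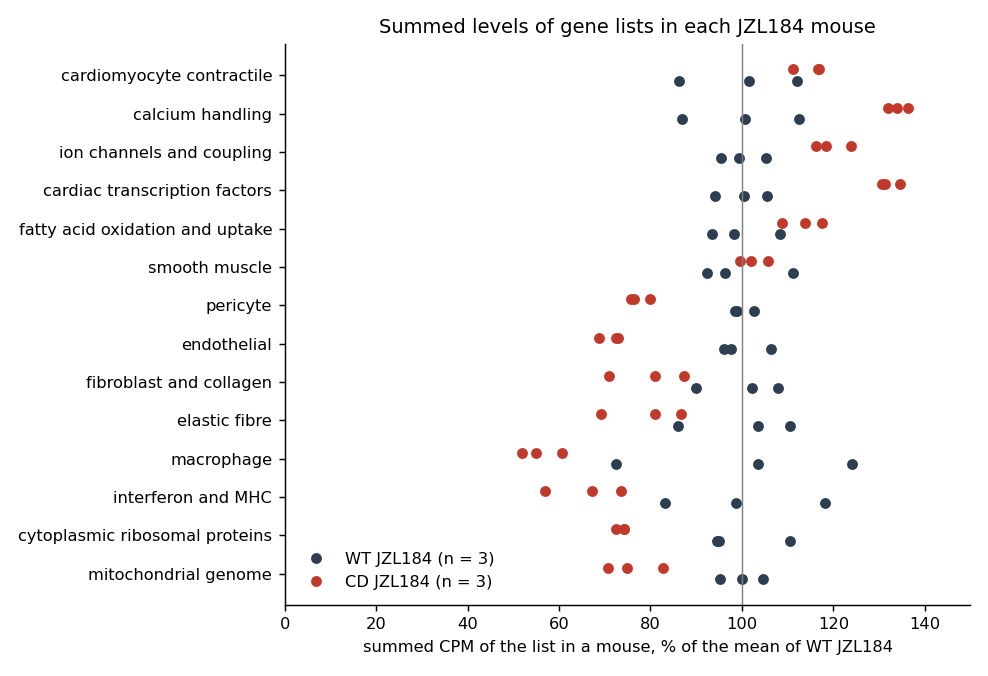
Summed CPM of 14 gene lists in each JZL184 mouse, as a percentage of the mean of the 3 WT mice, 1 point per mouse (red CD, dark WT). Calcium handling, ion channel and cardiac transcription factor genes lie above and pericyte, endothelial, fibroblast, macrophage, interferon, ribosomal protein and mitochondrial genome genes below the WT mice without overlap, while the contractile, smooth muscle and elastic fibre sums overlap.

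The summed levels of 17 of 39 lists did not overlap between the groups, a share no higher than the 46.9% of single genes without overlap. Of the 13 lists of cell type markers 6 did not overlap, namely pericyte, endothelial, fibroblast, macrophage, erythroid and skeletal muscle, and all 6 were lower in CD hearts, also a share near 46.9%. Most of the skeletal muscle sum is Ckm, which cardiomyocytes express, and 1 of its 5 tested genes, Acta1, was called. The sums are made of the marker genes counted above and describe the same values. Mesothelial, nerve and Schwann cell, lymphocyte and neutrophil, adipocyte and atrial sums overlapped.

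Retinoic acid genes included the largest reduction of the comparison. Of 11 tested genes 6 fell and none rose, beside 18.9% and 17.7% of all genes. Cyp26b1, which degrades retinoic acid, was at 2.77, 6.41 and 2.75 CPM in CD mice and at 24.6, 17.2 and 17.3 CPM in WT mice (-2.30 ± 0.63 on the log2 scale, edgeR adjusted p = 0.0142). The groups were far apart, but the adjusted p was 0.0556 without CD mouse A and 0.0573 without CD mouse E. Of the enzymes that make retinoic acid, Aldh1a1 was at 14.3, 12.8 and 12.4 CPM against 17.9, 23.6 and 20.1 CPM (-0.64 on the log2 scale, edgeR adjusted p = 0.00113) and Aldh1a2 had a log2 fold-change of -0.95. The receptor gene Rarg fell by 0.60, and Dhrs3 was also among the genes that fell.

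Fatty acid and glucose genes rose in part, beside 17.7% of all genes called higher and 18.9% lower. Of 35 genes of fatty acid oxidation and uptake 15 rose and none fell, with 9 called without CD mouse C and 23 without WT mouse A. Ppara, the nuclear receptor that drives this pathway, was at 37.4, 34.1 and 39.9 CPM in CD mice and at 21, 16 and 18 CPM in WT mice (1.02 ± 0.11 on the log2 scale, edgeR adjusted p = 0.00021), and the estrogen-related receptor Esrrg rose by 0.64. Slc16a7, a monocarboxylate transporter also named MCT2, was at 13.7, 11.3 and 15.8 CPM against 5.49, 4.81 and 6.39 CPM (1.29 ± 0.13 on the log2 scale, edgeR adjusted p = 0.000167). Of 25 genes of glucose use 9 rose, among them hexokinase Hk1 (0.53) and glycogen synthase Gys1 (0.60 on the log2 scale), and Eno1 alone fell; without WT mouse A 16 rose. Of 29 genes of the AMPK, folliculin and mTORC1 list 7 rose, with Prkaa2, a catalytic subunit of AMPK, at 138, 128 and 139 CPM against 91.5, 73.5 and 92.1 CPM (0.65 on the log2 scale, edgeR adjusted p = 0.001), and Lamtor5 and Lamtor4 fell. The 7 genes are near the share of all genes. Without CD mouse E 4 genes of this list rose, and 11 rose without WT mouse A or with gene length as an offset. In the list of adenylyl cyclase and G protein genes 9 of 34 rose, with the phosphodiesterase Pde3a at 0.74, and 11 fell, with Adcy4, an adenylyl cyclase of endothelium, at -0.53. Of 6 adipocyte genes tested Fabp4 and the adipocyte regulator Pparg (-0.65) fell, and Slc2a4 and Plin4 rose. The glucocorticoid-responsive factor Klf15 rose by 0.57 and the glucocorticoid-induced kinase Sgk1 fell by 0.80.

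Ribosomal protein genes were lower almost without exception. Of 79 genes of cytoplasmic ribosomal proteins 77 fell, against 18.9% of all tested genes, with a median log2 fold-change of -0.48. Rpl26 was at 161, 160 and 156 CPM in CD mice and at 224, 272 and 233 CPM in WT mice (-0.61 ± 0.09 on the log2 scale, edgeR adjusted p = 0.00109), and Rpl38 and Rps7 had log2 fold-changes of -0.63 and -0.58. Rpl3l, the form of Rpl3 that striated muscle expresses, was the 1 gene that rose, from 154, 122 and 153 CPM in WT to 202, 191 and 192 CPM in CD mice (0.45 ± 0.09 on the log2 scale, edgeR adjusted p = 0.00275). With gene length as an offset 55 were still called lower and the median was -0.27.

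Mitochondrial genes depended on whether gene length was considered. Of the 13 protein genes of the mitochondrial genome 10 fell, where 18.9% of all genes fell and 17.7% rose, and mt-Nd3 was at 3858, 3481 and 3027 CPM against 5809, 6856 and 5727 CPM (-0.83 on the log2 scale, edgeR adjusted p = 0.00103), with mt-Co3 at -0.59. With the length offset 2 of the 13 were called. Of 79 nuclear genes of the respiratory chain 34 fell and 5 rose (median -0.17, with Ndufv3 at -0.52), but with the length offset 6 fell and 18 rose and the median was 0.07, so no direction is given for this group. Of 17 mitochondrial tRNA synthetase genes 10 rose in both fits and none fell, and 5 rose without CD mouse E or WT mouse B. Ears2, the glutamyl-tRNA synthetase, was at 11.2, 10.9 and 11.3 CPM against 7.84, 7.48 and 7.65 CPM (0.54 ± 0.06 on the log2 scale, edgeR adjusted p = 0.000385). Lars2 was not called (0.15 on the log2 scale, edgeR adjusted p = 0.689), and its WT mice ranged from 362 to 631 CPM.

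The relation with transcript length ran over all genes. Of the 3035 genes with the shortest transcripts 188 rose and 897 fell, and of the 3035 with the longest 903 rose and 364 fell. Across 12138 genes of these same 6 mice the log2 fold-change and the log2 length had a Pearson correlation of 0.29, given as a description because genes are not independent replicates. With the length offset 35.4% of genes outside the interval were called, 2391 higher (19.6%) and 1940 lower, and with an offset for GC content 40.5%. The contractile, channel, endothelial, macrophage, smooth muscle and transcription factor lists kept their median direction with this offset, and what length contributes to single genes was not tested.

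The genes around the drug's target were measured next. Mgll, the target of JZL184, was at 104, 135 and 107 CPM in CD mice and at 151, 197 and 178 CPM in WT mice (-0.60 ± 0.12 on the log2 scale, edgeR adjusted p = 0.00374), with no overlap. The genes that make 2-arachidonoylglycerol were not called. Dagla was at 3.46, 4.07 and 3.88 CPM against 3.56, 4.47 and 3.44 CPM, Daglb at 7.27, 7.83 and 7.74 CPM against 6.29, 8.27 and 7.81 CPM, and both had log2 fold-changes within 0.03 of zero (edgeR adjusted p = 0.98 and 0.826). Of the receptors, Cnr1 was at or near the floor in all 6 mice (0 to 0.0408 CPM) and Cnr2 was between 0.657 and 0.796 CPM in CD mice and between 0.691 and 1.55 CPM in WT mice, below the filter. Faah, which degrades the other main endocannabinoid, anandamide, was also below the filter, at 0.293 to 0.316 CPM in CD and 0.143 to 0.264 CPM in WT mice.

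Of the 15 endocannabinoid genes tested, Alox5, Ces1d and Napepld rose and Mgll, Pla2g4a and Fabp5 fell, and the median was -0.01. These counts are near the shares over all genes, 17.7% higher and 18.9% lower. Alox5, which starts the synthesis of leukotrienes from arachidonic acid, was at 18.9, 22.3 and 20.4 CPM in CD mice and at 7.78, 8.85 and 11.5 CPM in WT mice (1.13 ± 0.13 on the log2 scale, edgeR adjusted p = 0.000387). Pla2g4a, a phospholipase that releases arachidonic acid, was at 1.99, 2.61 and 2.08 CPM against 2.94, 4.49 and 3.87 CPM (-0.75 on the log2 scale, edgeR adjusted p = 0.00479). The activity of these enzymes was not measured in these data.

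Other genes with large differences belonged to no list. Egf, the epidermal growth factor gene, was at 15, 12.2 and 12.5 CPM in CD mice and at 5.93, 8.06 and 6.64 CPM in WT mice (0.95 ± 0.20 on the log2 scale, edgeR adjusted p = 0.0041). Cubn, an endocytic receptor, had a log2 fold-change of 1.23 and Ky, a muscle protein needed for normal posture, was at 13.8, 14 and 15.9 CPM against 6.10, 6.41 and 9.27 CPM (edgeR adjusted p = 0.00107). Cenpf, which is bound to kinetochores in dividing cells, rose by 0.98, Armc2, known from sperm flagella, by 0.95 and Aldh1l2, a mitochondrial folate enzyme, by 0.94. Scgb1c1, a secretoglobin, was at 6.61, 4.97 and 6.25 CPM against 15.1, 20.4 and 8.82 CPM (-1.31 ± 0.24 on the log2 scale, edgeR adjusted p = 0.00239).

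The same genotype contrast in VEH mice, with 3 CD and 2 WT mice, gave 3498 DEGs outside the interval (28.6%), 1709 higher and 1789 lower. Of the JZL184 DEGs 2179 were also VEH DEGs, 48.75% of the first and 62.29% of the second. Of these, 2119 differed in opposite directions and 60 in the same direction. The test of the difference between the contrasts was passed by 6153 genes (50.3%). It was also passed by all of the 2119, which adds nothing, since they were taken for being called in both contrasts with opposite signs. Of the 2291 JZL184 DEGs that were not VEH DEGs, 1856 passed that test. This share is partly built in, since the genes were taken for their JZL184 call and the JZL184 values enter the difference. The VEH side rested on its 2 WT mice. Without WT VEH mouse C there were 296 VEH DEGs and 202 genes of opposite direction, and without WT VEH mouse D there were 1186 and 778. Each of these 2 fits leaves 1 WT VEH mouse, which is assumed to vary like the other groups. Without CD VEH mouse A or E 1930 and 1976 VEH DEGs remained.

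Several genes and lists described above differed the other way in VEH mice. Ppara was at 23.4, 24.8 and 21.7 CPM in CD VEH and at 38 and 31.1 CPM in WT VEH mice, Myl9 at 20.6, 17.8 and 16.1 CPM against 10.9 and 9.53 CPM, and Mgll at 148, 165 and 143 CPM against 101 and 123 CPM. For these genes the CD JZL184 and WT VEH mice were on one side and the WT JZL184 and CD VEH mice on the other. The interval genes check the genotype labels, but no value here checks the treatment labels, on which every JZL184 and VEH value rests. The median log2 fold-change of the contractile list was 0.25 under JZL184 and -0.46 under VEH, that of the endothelial list -0.63 and 0.49, that of the interferon and MHC list -0.57 and 0.70 and that of the ribosomal protein list -0.48 and 0.45. The share of mitochondrial counts moved with these values, at 36.4% to 40.2% in CD JZL184 and 39.4% to 41.2% in WT VEH mice and at 44.96% to 46.6% in WT JZL184 and 43.5% to 44.7% in CD VEH mice. So did the relation with length, since the median of the 3035 genes with the shortest transcripts was -0.11 under JZL184 and 0.16 under VEH, and that of the longest 0.11 and -0.15. Their part in the opposite differences was not tested.

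**Figure D4:**
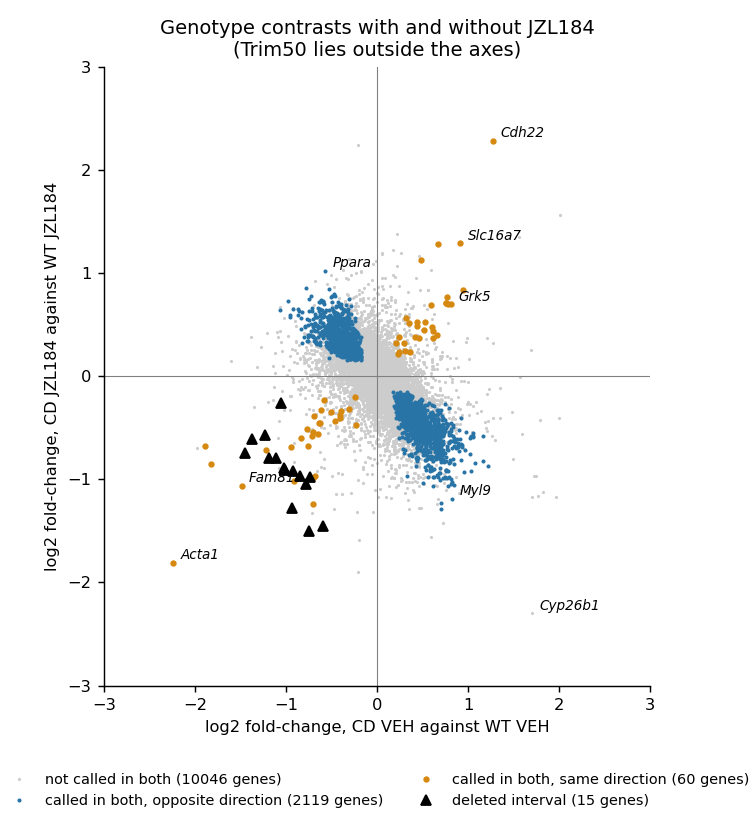
Log2 fold-change of CD against WT in VEH mice (horizontal axis) and in JZL184 mice (vertical axis), 1 point per tested gene. Blue points are the 2119 genes called in both contrasts in opposite directions, orange points the 60 called in the same direction, triangles the 15 interval genes, and Trim50 lies outside the axes. The blue points fill the upper left and lower right. The interval genes lie in the lower left, with a small number of other genes called in both contrasts, such as Acta1.

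The interval genes kept their direction, with a median log2 fold-change of -0.91 under JZL184 and -1.01 under VEH, and 9 of the 15 passed the test of the difference between the contrasts, beside 50.3% of the genes outside the interval. Gtf2i, Gtf2ird1, Dnajc30, Mlxipl, Tbl2 and Baz1b were less reduced and Clip2, Eln and Bcl7b more reduced under JZL184. Eln in VEH mice was at 15.7, 21.6 and 26.4 CPM in CD and at 34.8 and 36.5 CPM in WT mice, a log2 fold-change of -0.75, and the difference between the contrasts was -0.75 (SE 0.28, edgeR adjusted p = 0.0399). Baz1b had a log2 fold-change of -1.45 under VEH and -0.75 under JZL184 (edgeR adjusted p of the difference = 0.000415). Trim50 was at 6.76, 6.17 and 6.89 CPM in CD VEH mice and at 0.116 and 0.0995 CPM in WT VEH mice, and Fkbp6 had 216 counts in CD VEH and 5 in WT VEH mice, so both were higher in CD hearts with and without JZL184.

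Outside the interval, the 60 genes called in the same direction in both contrasts were 31 higher and 29 lower, and 6 of them (10%) were on chromosome 5, where 6.10% of the tested genes lie. The 31 include Trim50, which is also among the 6, and Plet1, and both passed the filter only through the CD mice. Acta1 was at 22.3, 60.0 and 54.1 CPM in CD VEH and at 226 and 204 CPM in WT VEH mice, so that all 6 CD mice were below all 5 WT mice (VEH log2 fold-change -2.24, edgeR adjusted p = 0.00328). Slc16a7 was at 14.4, 12.9 and 12.4 CPM in CD VEH and at 6.85 and 7.17 CPM in WT VEH mice (VEH log2 fold-change 0.92). Grk5, a kinase that desensitizes G protein-coupled receptors, was at 33.9, 42.1 and 37.1 CPM against 20.2, 24.4 and 25.2 CPM under JZL184 (0.70 on the log2 scale, edgeR adjusted p = 0.000975) and at 37.1, 36.9 and 37.3 CPM against 19.3 and 22.9 CPM under VEH. Cdh22, a cadherin, had log2 fold-changes of 2.28 under JZL184 and 1.28 under VEH, and Plet1 of 1.28 and 0.67. Plet1, at 0.657 to 1.12 CPM in WT mice, passed the filter only through the CD mice. Cdh22, at 0.599 to 1.57 CPM in WT mice, was near the filter in them. The calls of both genes are therefore a description. Tmod4, a tropomodulin of skeletal muscle, was lower in both (-0.99 and -0.70), as was Fam81a (-1.06 and -1.49). Alox5 was higher in both (1.13 and 0.48). The count of 60 was 13 without WT VEH mouse C, 20 without WT VEH mouse D and 38 without CD JZL184 mouse C. Grk5, Cdh22, Plet1, Tmod4 and Fam81a were named after their values were seen.

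**Figure D5:**
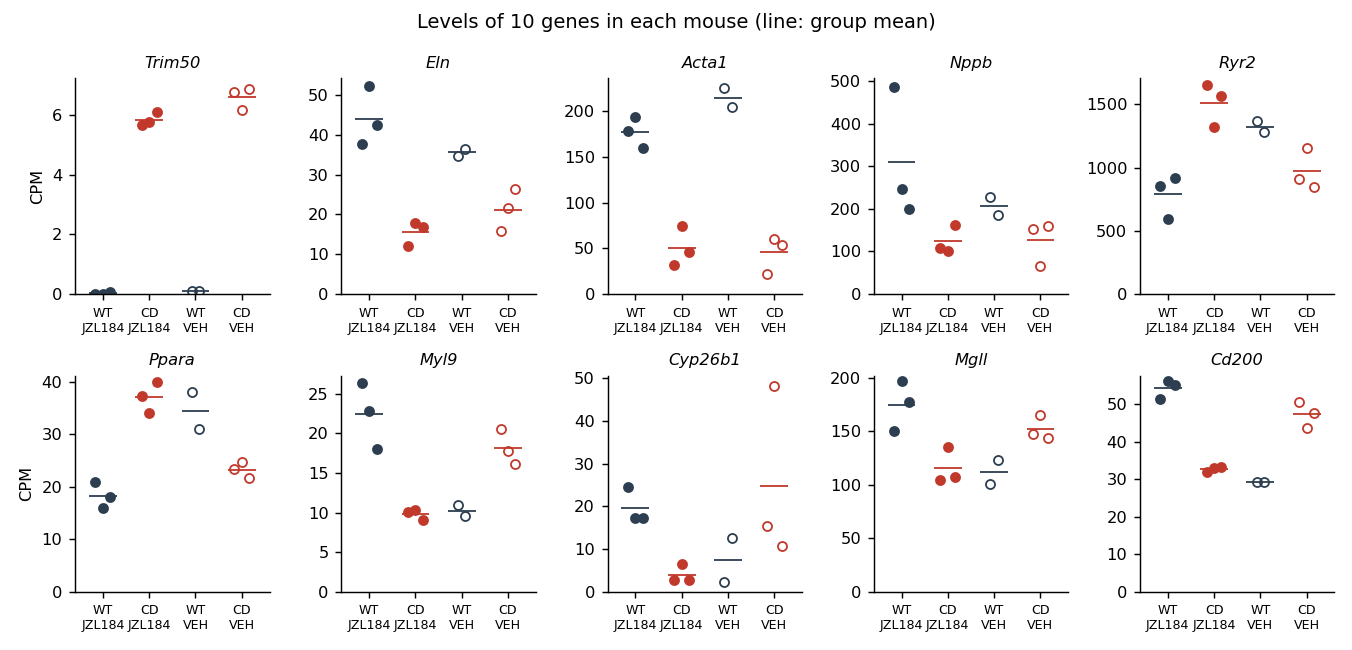
CPM of 10 genes in each of the 11 mice, by group (filled JZL184, open VEH, dark WT, red CD), with the group mean as a line. Trim50, Eln and Acta1 differ between the genotypes in the same direction under JZL184 and VEH, while Ppara, Myl9, Mgll and Cd200 differ in opposite directions.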

How the data were processed

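RNA from the hearts of 11 male mice, from ventricle per the labels, was sequenced by the authors, with each mouse as 1 sample. The labels give strain WBS-CD or C57BL/6 and JZL184 or vehicle, and call the vehicle mice untreated in the treatment field. The authors deposited a single matrix of estimated counts, genes by mice and not normalized, which they made with Salmon 0.7.2 on mouse transcripts of Ensembl release 85 (GRCm38, mm10) and tximport 1.2.0. Its columns name the group and a letter (A to E) that no label gives, so mice are called by group and letter, and 0 columns were without a group. The count test assumes that these mice are independent, and p-values measure the spread between them. Mice of 1 group differed by more than counting noise (chi-square per gene between 21.1 and 116).

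After rounding, the counts went into edgeR 4.0.16 under R 4.3.3 (limma 3.58.1; TMM factors, quasi-likelihood, 1 model over the 11 mice without covariates, 7 residual degrees of freedom, Benjamini-Hochberg adjustment over all 12240 genes with a mean of at least 1 CPM). The common coefficient of biological variation was 9.45%. CPM were scaled by the TMM factors, and log2 CPM of principal components had a prior count of 2. Log2 fold-changes are CD minus WT. The floor of 3 counts and all counting intervals cover counting error only. Names and positions came from GENCODE mouse release 21, which matched 22238 of 22608 identifiers, and windows before gene starts from RefSeq on GRCm38.p6. The script was tested on simulated data with known changes.

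The comparison, the 39 gene lists and the rule for named genes were chosen with earlier results of these data known. The rule takes the tested interval genes, the 10 highest and 10 lowest DEGs whose mean is 5 CPM or more and whose groups are separate, the 6 DEGs with the lowest p, up to 3 genes of lowest p per list and 15 fixed genes. Genes given only to complete a count, and Myocd and Angpt1, were named after their values were seen. Lists are described by counts, medians and summed levels, with no test. DESeq2 1.42.0, other scaling factors, other filters, offsets for length and GC content (loess, span 0.5), runs without mitochondrial genes and leaving out each mouse were the alternatives, and those of the VEH contrast and of the genes shared between contrasts were chosen after seeing the data. Some genes that complete a count are not reported here.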

Additional observations from a re-analysis of the deposited data

Results flagged for a closer look

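The genotype contrast under JZL184 differed from the one under VEH in 6153 genes outside the interval by the test of the difference itself (edgeR adjusted p under 0.05). For genes tracked under the alternatives that passed this test, the difference between the log2 fold-changes (JZL184 minus VEH) is given here, with no explanation weighed. Groups of 2 or 3 mice are too small for a test of single outlying mice.

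In the interval the difference was 0.66 for Gtf2i, 0.79 for Gtf2ird1, 0.31 for Dnajc30, 0.76 for Mlxipl, 0.39 for Tbl2 and 0.70 for Baz1b, and it was -0.86 for Clip2, -0.75 for Eln and -0.24 for Bcl7b. In the flanks it was 0.54 for Castor2, 0.64 for Ywhag, -1.04 for Ncf1 and -1.67 for Ccl24. Trim50 had a value of 1.84, which depends on the prior count, and its test is not used as support.

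Among contractile, calcium and channel genes the difference was 0.95 for Myh6, 1.26 for Cmya5, 0.90 for Actn2, 0.77 for Ldb3, 1.70 for Myh7, 0.54 for Fhl1, 0.997 for Atp2a2, 1.39 for Ryr2, -0.36 for Itpr2, 1.16 for Kcnd3, 0.89 for Kcnd2, 1.06 for Kcnj3, 0.69 for Kcnj11 and 1.13 for Scn4a. Among regulators it was 1.26 for Tead1, 0.47 for Nkx2-5, 0.73 for Mef2a, 0.99 for Rbm24, 0.70 for Rbfox2, 0.999 for Klf15 and -1.23 for Sgk1. Among metabolic genes it was 1.59 for Ppara, 1.198 for Esrrg, 0.81 for Hk1, 1.06 for Gys1, 1.28 for Prkaa2, 1.05 for Pde3a, -0.68 for Adcy4 and -1.16 for Pparg.

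Among the genes of smooth muscle, pericytes, endothelium and vascular signalling the difference was -2.02 for Myl9, -1.99 for Tagln, -1.92 for Myh11, -1.02 for Mylk, -1.34 for Vtn, -1.14 for Rgs5, -1.41 for Ly6c1, -0.92 for Robo4, -1.58 for Fabp4, -0.67 for Flt1, -0.94 for Tek, and -1.08 for Angpt2, while it was 1.498 for Myocd of the smooth muscle list. In these lists positive differences were called for 3 of 19 smooth muscle, 1 of 10 pericyte, 0 of 26 endothelial and 2 of 28 vascular signalling genes, and negative ones for 13, 8, 23 and 21. Over all genes outside the interval 24.7% had a called positive and 25.6% a called negative difference. Bmp6 of the TGF-beta list had a difference of -1.41. Among the genes of lowest p it was -1.11 for Adgrl4, -1.37 for Cav2, -1.42 for Cd200, -1.47 for Lpar6 and -1.19 for Gsta3. Matrix genes had values of -1.08 for Dcn, -1.23 for Lum, -1.13 for Tcf21, -0.50 for Fbln2, -0.92 for Fbln5 and -1.54 for Mfap4. Macrophage and MHC genes had values of -1.57 for Lyz2, -1.17 for Adgre1, -0.54 for Mertk, -2.16 for Ccl6, -1.74 for Ccl9, -2.15 for Wfdc17, -1.57 for B2m and -1.38 for H2-D1, and Hba-a1 had one of -2.88. Hba-a1 was at 2586 CPM in CD VEH mouse A and at 440 and 306 CPM in the other CD VEH mice.

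Retinoic acid genes had differences of -4.002 for Cyp26b1, -1.08 for Aldh1a1, -0.90 for Aldh1a2 and -1.27 for Rarg. Cyp26b1 was at 15.4, 48.2 and 10.7 CPM in CD VEH and at 2.36 and 12.7 CPM in WT VEH mice, which overlap (VEH edgeR adjusted p = 0.0831). Ribosomal and mitochondrial genes had values of -1.08 for Rpl38, -1.20 for Rpl26, -1.14 for Rps7, 0.35 for Rpl3l, -1.21 for mt-Nd3, -0.93 for mt-Co3, -0.96 for Ndufv3, 0.67 for Ears2 and 1.76 for Lars2. The value of Lars2 rests on the WT VEH mice, which were at 1600 and 621 CPM. Endocannabinoid genes had values of 0.65 for Alox5, -1.04 for Mgll and -1.14 for Pla2g4a. The others were Egf with 0.89, Cubn with 1.05, Ky with 1.23, Plet1 with 0.62, Armc2 with 0.86, Cenpf with 0.81, Aldh1l2 with 1.26 and Scgb1c1 with -1.27. Plet1 passed the filter on low values only through the CD mice, so its value is a description.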

How the results depend on the processing

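No paired analysis was possible because the columns carry letters that no label gives, so that no replicate number links a CD with a WT mouse. The 4470 DEGs of the JZL184 comparison became 2247 at an adjusted p under 0.01 and 78 with a log2 fold-change of at least 1 as well, and lay between 3000 and 5131 when each mouse was left out. DESeq2 called 4858 genes, and the share of higher genes was 48.41% in the main analysis, 43.31% with upper-quartile factors, 55.21% with the length offset and 55.76% with the GC offset. The difference between the contrasts had 3985 DEGs at 0.01, 981 with the fold limit and between 4718 and 6786 when each mouse was left out. VEH DEGs lay between 296 and 3582, genes of the same direction between 13 and 78 and genes of opposite direction between 202 and 2746 when each mouse was left out, with 1253 and 1235 of opposite direction without CD VEH mouse A or E. Between 14 and 15 interval genes, 6 and 11 flanking genes and 9 and 18 of the 39 lists with more than 50% of members called one way (13 in the main analysis) remained when each mouse was left out. The first principal component held 61.44% over all tested genes. Of 119 named genes 114 were called, and 108 of them kept call and direction under every alternative run. The exceptions were Gtf2ird1 (highest adjusted p 0.157), Ywhag (0.0527), Myh6 (0.0581), Nppb (0.0527), Cyp26b1 (0.0573) and Angpt1 (0.0629). Hba-a1 passed when the model held only the compared groups (edgeR adjusted p = 0.0108). Log2 fold-changes near zero changed sign for Lars2 (-0.000517 without WT mouse B, at most 0.4322 when 1 mouse was left out), for Dagla (0.0057 without a filter, 0.015 with the GC offset, 0.059 without CD mouse A, 0.12 without WT mouse B, -0.07581 without WT mouse D) and for Daglb (-0.080 without WT mouse A, 0.1084 without WT mouse B). The cause of these changes was not tested. Of 351 list counts 305 stayed within 1.5 times the value given. Genes near the floor of 3 counts allow no fine comparison.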
